A study of Homo sapiens with 6 samples.

Results

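Cells repair their DNA through several routes, each suited to a kind of damage. Mismatch repair corrects copying errors behind the replication fork, base excision repair removes single damaged bases, and nucleotide excision repair cuts out bulky lesions such as those left by ultraviolet light. Double-strand breaks are either copied from the sister chromatid by homologous recombination, which works while DNA is being replicated and in the phase that follows, or sealed directly by end joining, which works throughout the cell cycle. The Fanconi anemia proteins clear crosslinks between the strands, and the checkpoint kinases stop the cycle while repair goes on. These routes were followed here through 52 genes, listed by name and pathway with earlier results of these data known, of which 49 had a probe set annotated to that gene alone among the 11963 genes so represented on the array.

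The cells were HL60, an established human promyelocytic leukemia line that matures toward granulocytes when given retinoic acid. One group was given tretinoin (all-trans retinoic acid) at 1 µM and the other its vehicle alone, dimethyl sulfoxide (DMSO), and both were incubated for 5 days. DMSO made up 0.1% of the medium in both groups. RNA of each group was hybridized to 3 Affymetrix GeneChip human arrays, whose signals were computed by the submitters with MAS5. The study describes each set of 3 as hybridizations run side by side from 1 pool of labeled RNA, so the errors and p-values given here measure the spread between hybridizations and not between cultures. All values are of this 1 line, with no other line or dose to set beside them.

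Each array was scaled to the mean signal of DMSO replicate 1 and every signal below 20 was set to 20, a floor. Signals are quoted in these scaled units, in the order of replicates 1, 2 and 3. A gene was represented by its brightest probe set, and 48 of the 49 repair genes were tested with limma, since their probe set was above 20 on at least 3 of the 6 arrays. The fold changes are tretinoin over DMSO on the log2 scale, with the standard error of the fit. A gene was called lower or higher at an adjusted p under 0.05, by the Benjamini-Hochberg method over all probe sets tested, together with a change of at least 1.5-fold. Where an array of 1 condition was at the floor, the fold is written as "at least". The value 20 below is this floor and not a measured signal. The floor also narrows the spread between arrays, so the standard error and p-value of a gene with arrays there do not fully measure it.

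After 5 days of tretinoin, 19 of the 48 repair genes tested were called lower (39.6%), 1 was called higher and 28 passed neither call. Over all 8161 genes tested, 14.3% were called lower and 13.5% higher. Among the falls measured on both sides, above the floor on all 6 arrays, were those of RAD51C, a recombination protein (3.38-fold), and MSH6, a mismatch sensor (2.87-fold). The fall of UNG, the uracil DNA glycosylase, was at least 4.89-fold and that of CHEK1, a checkpoint kinase, at least 3.09-fold, both limited by the floor, so the falls have no settled order. The single higher gene was POLB, the gap-filling polymerase of base excision repair (1.66-fold). All 3 tretinoin arrays lay below all 3 DMSO arrays for 26 of the 48 repair genes, and above them for 5. The same held for 24.7% and 21.5% of all genes tested. NTHL1, RAD54L, MRE11 and FANCG passed the filter only through their DMSO arrays, all 3 tretinoin arrays being at the floor, and had to differ. With at least 1 array above 20 required in each condition, 15 of 44 repair genes were lower (6 in homologous recombination, 2 in the Fanconi anemia group) and 1 higher, against 13.9% and 12.7% of all genes, an alternative chosen after seeing the data. The median log2 fold change of the repair genes was -0.54, against -0.04 over all genes tested.

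The calls were spread unevenly over the 7 groups. Lower calls were made for 8 of 12 genes tested in homologous recombination, 3 of 4 in the Fanconi anemia group, 2 of 2 in mismatch repair, 3 of 10 in base excision repair, 2 of 5 in end joining, 1 of 6 in the checkpoint group and 0 of 9 in nucleotide excision repair. The median log2 fold change was lowest in mismatch repair (-1.18), the Fanconi anemia group (-1.10) and homologous recombination (-1.02), and closest to 0 in nucleotide excision repair (-0.06). No test of one group against another was made, so these are counts and not ranks. Of 20 genes of cell proliferation, 17 were called lower, among them PCNA and MCM2 to MCM7, against 14.3% of all genes tested. The 17 include CDC45, which was at the floor on all 3 tretinoin arrays, passed the filter only through its DMSO arrays and had to differ. MKI67, TOP2A and CCNB1 were not called (log2 fold changes of -0.16, -0.72 and -0.55). The summed signal of the 20 genes ranged over 2051 to 2130 on the tretinoin arrays, against 6283 to 6688 on the DMSO arrays. Any part of these proliferation changes in the fall of the repair genes was not tested. In bulk RNA of this kind, fewer cells expressing a gene and less RNA per cell cannot be told apart.

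**Figure D1:**
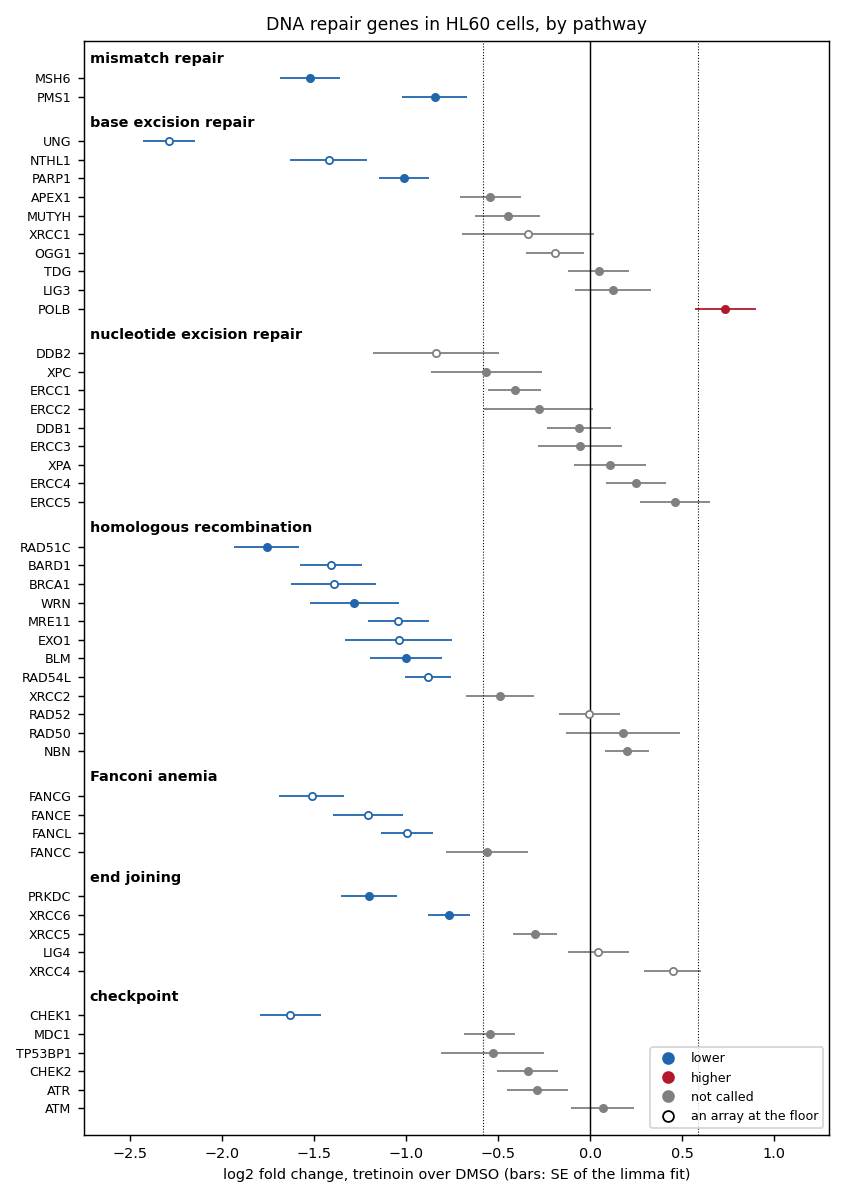
Log2 fold change (tretinoin over DMSO) of the 48 repair genes tested, ordered within each of the 7 groups, with bars for the standard error of the limma fit the color of each point for its call open points where an array was at the floor, and dotted lines at the 1.5-fold minimum. The recombination genes lie mostly left of 0 while the 9 nucleotide excision repair genes straddle it, and POLB is the only gene called higher.

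**Figure D2:**
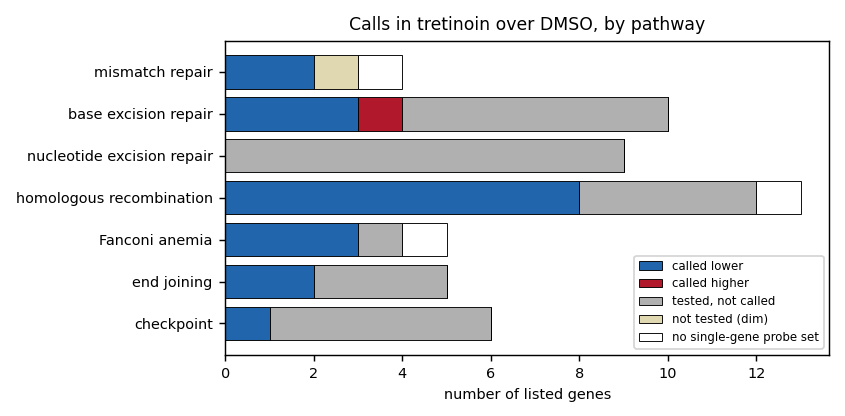
Number of listed repair genes (horizontal axis) called lower, called higher, not called, too dim to test or without a probe set of their own, for each of the 7 groups. Homologous recombination holds 8 of the 19 lower calls, and nucleotide excision repair none.

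The promoters of the genes that fell are shown first, since genes of replication and recombination are known targets of E2F factors, which act at the entry to DNA synthesis. RefSeq promoter windows (GRCh38.p14), from 250 bases before a transcript's start to 50 after it, were matched for 44 of the 49 genes, in 66 windows. The genes NBN, POLB, PRKDC, WRN and XRCC5 had no entry. An E2F motif, TTTCGCGC or TTTGGCGC on either strand, was present in 2 of the 17 genes called lower that had a window (EXO1 and XRCC6) and in 1 of the 26 not called (FANCC). It was present in 1.15% of all 35116 windows and, by gene, in 2.47% of the 6733 tested genes with a window. A CCAAT box (CCAAT, either strand) was present in 9 of the 17 lower genes, in 14 of the 26 not called, in 44.4% of the tested genes with a window and in 34.6% of all windows. An E-box (CACGTG, which reads the same on both strands) was present in 2 of the 17, in 5 of the 26, in 13.1% of those tested genes and in 7.26% of all windows. A CHR element (TTTGAA, either strand) was present in 1 of the 17, in 7 of the 26, in 14.9% of those tested genes and in 15.2% of all windows. The windows below belong to both lower genes with an E2F match and to UNG, added after its values were seen. Capitals mark every match to the 4 motifs, none of which overlaps another, and all windows are on the plus strand.
EXO1, chr1:241847954-241848253: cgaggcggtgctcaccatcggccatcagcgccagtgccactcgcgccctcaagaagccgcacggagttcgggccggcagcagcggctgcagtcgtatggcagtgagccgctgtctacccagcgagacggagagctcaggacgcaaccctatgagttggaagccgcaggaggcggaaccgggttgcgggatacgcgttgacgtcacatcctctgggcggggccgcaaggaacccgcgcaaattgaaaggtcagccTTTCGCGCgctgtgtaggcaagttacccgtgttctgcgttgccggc
XRCC6, chr22:41621045-41621344: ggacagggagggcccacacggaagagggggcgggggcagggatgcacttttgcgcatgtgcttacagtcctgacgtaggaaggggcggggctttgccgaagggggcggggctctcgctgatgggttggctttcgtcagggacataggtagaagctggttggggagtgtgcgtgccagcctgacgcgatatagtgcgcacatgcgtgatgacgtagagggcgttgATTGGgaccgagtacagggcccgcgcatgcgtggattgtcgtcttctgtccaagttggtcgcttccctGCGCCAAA
UNG, first start, chr12:109097347-109097646: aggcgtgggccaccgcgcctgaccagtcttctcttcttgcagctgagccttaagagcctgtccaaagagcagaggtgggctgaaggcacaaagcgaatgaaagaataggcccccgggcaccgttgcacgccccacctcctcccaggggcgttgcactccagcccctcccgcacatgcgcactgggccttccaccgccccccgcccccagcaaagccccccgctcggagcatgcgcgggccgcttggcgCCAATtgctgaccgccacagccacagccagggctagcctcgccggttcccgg
UNG, second start, chr12:109097922-109098221: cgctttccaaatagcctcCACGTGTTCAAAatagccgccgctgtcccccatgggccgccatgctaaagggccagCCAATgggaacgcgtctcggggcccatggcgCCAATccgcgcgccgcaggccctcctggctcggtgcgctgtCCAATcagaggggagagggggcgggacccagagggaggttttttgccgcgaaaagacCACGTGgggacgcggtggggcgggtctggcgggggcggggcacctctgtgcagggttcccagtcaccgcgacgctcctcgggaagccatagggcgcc
The E2F match began at base 5 after the start in EXO1 and, on the opposite strand, at base 43 in XRCC6, whose window also held a reversed CCAAT box 26 bases before the start. The first UNG window held a CCAAT box 2 bases before the start. In the second UNG window the E-boxes began 232 and 47 bases before the start, with a reversed CHR element directly after the farther one and CCAAT boxes at 176, 145 and 104 bases. These matches are letters in a window and not measured binding.

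Homologous recombination had the most genes called lower. RAD51C, a recombinase paralog that helps build the filament on single-stranded DNA (GRCh38.p14, as for every gene position given, chr17:58692573-58735611, probe set 209849_s_at), had signals of 30.5, 41.1 and 45.4 on the tretinoin arrays, against 122.5, 141 and 127 on the DMSO arrays. Every tretinoin array was far below every DMSO array (log2 fold change -1.76 ± 0.18, adjusted p = 0.000441). BRCA1, which steers breaks into recombination, had 20, 36.7 and 26.8 on the tretinoin arrays, against 78, 72.1 and 63.2 on the DMSO arrays. Its partner BARD1, with which it forms a ubiquitin ligase, had 28.9, 20 and 27.3 on the tretinoin arrays, against 67.6, 67.2 and 65.1 on the DMSO arrays. Both falls were limited by the floor, at least 2.63-fold for BRCA1 (log2 fold change -1.39 ± 0.23, adjusted p = 0.00383) and at least 2.66-fold for BARD1 (log2 fold change -1.41 ± 0.17, adjusted p = 0.000878), with no overlap between the conditions.

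The other recombination genes called lower were BLM, WRN, MRE11, RAD54L and EXO1. BLM, the Bloom syndrome helicase that dissolves recombination intermediates, had 62.1, 95.2 and 59.8 on the tretinoin arrays, against 144, 143 and 139 on the DMSO arrays (adjusted p = 0.00795). WRN, the Werner syndrome helicase, had 21.3, 21.7 and 27.3 on the tretinoin arrays, against 80, 44.2 and 51.1 on the DMSO arrays (2.43-fold lower), with every tretinoin array just above the floor. In both helicases the highest tretinoin array lay below the lowest DMSO array. MRE11, the nuclease that begins to trim a broken end, was at the floor of 20 on all 3 tretinoin arrays, against 45.8, 32.9 and 46.3 on the DMSO arrays (at least 2.06-fold lower). RAD54L, a motor protein that helps the recombinase invade its template, was also at the floor on all tretinoin arrays, against 40.3, 37.1 and 33.5 on the DMSO arrays (at least 1.84-fold lower). For both genes the tretinoin arrays were all at the floor, so the size of the fall is only a lower bound. Their DMSO signals were themselves low. EXO1, a nuclease of recombination and mismatch repair whose promoter is shown above, had 20, 37.1 and 20 on the tretinoin arrays, against 54.2, 60.9 and 39.1 on the DMSO arrays (at least 2.06-fold lower, adjusted p = 0.0315). Tretinoin replicate 2 came close to DMSO replicate 3.

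Among these 8 genes EXO1 had the least secure call, which was lost without tretinoin replicate 1 or 3 or without DMSO replicate 1 or 2 (adjusted p = 0.0968, 0.0996, 0.0862 and 0.0959). Without any 1 DMSO array MRE11 and RAD54L were above 20 on only 2 arrays and were not tested, so that the count for homologous recombination was 5 without DMSO replicate 1, 5 without DMSO replicate 2 and 7 without DMSO replicate 3. The last of these includes XRCC2, called lower there (log2 fold change -0.64, adjusted p = 0.0427). The other 4 recombination genes tested were not called. RAD50 and NBN, the partners of MRE11 in the complex that senses breaks, had log2 fold changes of 0.18 ± 0.31 and 0.20 ± 0.12. The RAD50 signals on the DMSO arrays were scattered (70.6, 36.1 and 86.4). Its other probe set, 209349_at, had the opposite sign (log2 fold change -0.43 ± 0.21, adjusted p = 0.171), with 2 tretinoin arrays at the floor. The NBN signals on the tretinoin arrays were all slightly above those on the DMSO arrays. RAD52, an annealing factor, was close to the floor throughout (20, 20 and 26.8 on the tretinoin arrays, against 20, 22.3 and 24.4 on the DMSO arrays), and XRCC2, a further recombinase paralog, had a log2 fold change of -0.49 ± 0.18 (adjusted p = 0.0846). BRCA2 had no probe set of its own.

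**Figure D3:**
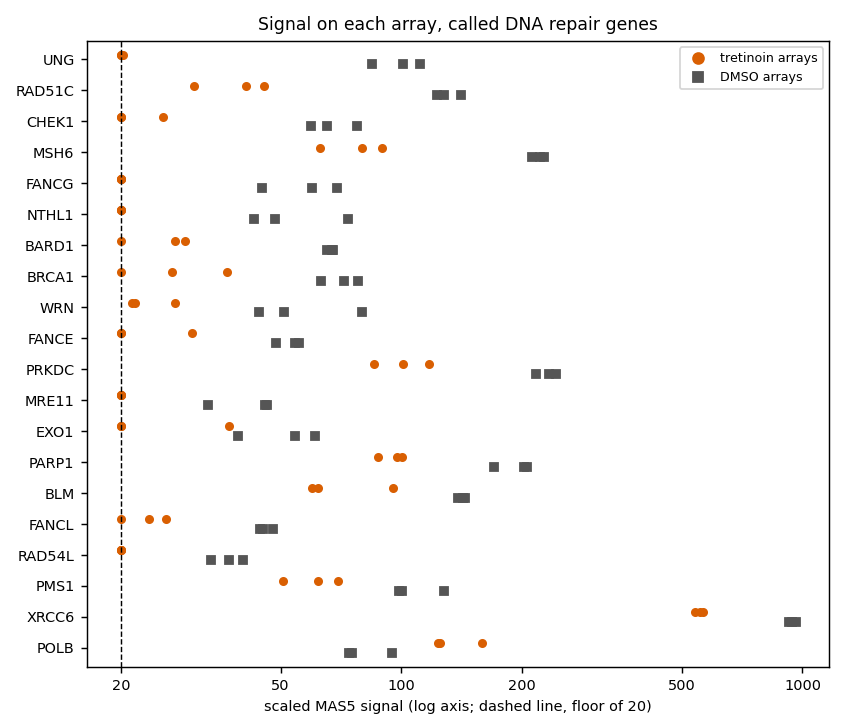
Scaled signal on each array (log axis) of the 20 repair genes called lower or higher, in rows by size of change, with the 3 tretinoin arrays (circles) drawn just above the 3 DMSO arrays (squares) and the floor of 20 as a dashed line. In all 20 genes the conditions do not overlap, and in 11 of the 19 lower genes at least 1 tretinoin array sits at the floor.

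The Fanconi anemia group had 3 members of its core complex called lower. FANCG, which holds the complex together, was at the floor of 20 on all 3 tretinoin arrays, against 45, 59.8 and 69.2 on the DMSO arrays (at least 2.85-fold lower). It passed the filter only through its DMSO arrays and so had to differ, and no p-value is given for it. FANCE, which bridges the complex to its substrate, had 20, 30.0 and 20 on the tretinoin arrays, against 54.2, 48.8 and 55.6 on the DMSO arrays (at least 2.31-fold lower, adjusted p = 0.00306). FANCL, the ubiquitin ligase subunit, had 20, 25.9 and 23.5 on the tretinoin arrays, against 47.8, 44.5 and 45.3 on the DMSO arrays (at least 1.99-fold lower, adjusted p = 0.0019). Their DMSO signals did not exceed 69.2, and their tretinoin signals were at or near the floor, so that with a floor of 40 none of them was called. FANCC, a further core subunit, had 54.0, 97.4 and 72.3 on the tretinoin arrays, against 108, 116 and 97.7 on the DMSO arrays. Its conditions did not overlap, but the log2 fold change of -0.56 ± 0.22 missed the threshold (adjusted p = 0.101). It was called lower without tretinoin replicate 2, the highest of its tretinoin arrays (log2 fold change -0.77, adjusted p = 0.0218). FANCA had no probe set of its own.

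Both mismatch repair genes tested were called lower. MSH6, which pairs with a second MutS protein to recognize base mismatches (chr2:47783145-47810101, probe set 202911_at), had 89.7, 62.7 and 79.9 on the tretinoin arrays, against 227, 222 and 211 on the DMSO arrays. The conditions were far apart, with no tretinoin signal above 89.7 and no DMSO signal below 211 (2.87-fold lower, log2 fold change -1.52 ± 0.16, adjusted p = 0.000547). PMS1, a MutL homolog, had 69.7, 50.6 and 61.9 on the tretinoin arrays, against 98.4, 100.4 and 128 on the DMSO arrays (1.80-fold lower, log2 fold change -0.85 ± 0.18, adjusted p = 0.0102). MSH3, which recognizes small loops, was not tested because only 2 arrays were above 20. It had 20, 35.5 and 37.5 on the tretinoin arrays, against 20, 20 and 20 on the DMSO arrays. PMS2 had no probe set of its own.

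In base excision repair 3 of 10 genes were called lower and 1 higher. UNG removes uracil from DNA, much of it incorporated during replication, and its gene lies at chr12:109097597-109110992 (probe set 202330_s_at). It had 20, 20.2 and 20 on the tretinoin arrays, against 101, 111 and 84.3 on the DMSO arrays. The tretinoin arrays were at or just above the floor, so the fold is a lower bound (at least 4.89-fold lower, log2 fold change -2.29 ± 0.14, adjusted p = 7.28e-05). Before the floor the tretinoin signals of UNG were 14.5, 20.2 and 13.6. The floor narrowed their spread, so this standard error and p-value do not measure it. NTHL1, a glycosylase for oxidized pyrimidines, was at the floor of 20 on all 3 tretinoin arrays, against 73.5, 48.5 and 43.0 on the DMSO arrays (at least 2.68-fold lower). It passed the filter only through its DMSO arrays and so had to differ, and no standard error or p-value is given for it. Without any 1 DMSO array NTHL1 and FANCG were above 20 on only 2 arrays and were not tested. PARP1, which senses strand breaks and marks them with poly(ADP-ribose), had 100.4, 87.7 and 97.4 on the tretinoin arrays, against 202, 170.1 and 205 on the DMSO arrays (2.02-fold lower, log2 fold change -1.01 ± 0.14, adjusted p = 0.00158). Its signals were well above the floor on every array.

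POLB had 123, 159 and 125 on the tretinoin arrays, against 95, 75.2 and 74.2 on the DMSO arrays. Every tretinoin array was above every DMSO array (1.66-fold higher, log2 fold change 0.73 ± 0.17, adjusted p = 0.0146). The call was lost without DMSO replicate 2 (log2 fold change 0.68, adjusted p = 0.052) and without DMSO replicate 3 (0.67, adjusted p = 0.0504), and with no scaling of the arrays (0.53, adjusted p = 0.125). APEX1, the endonuclease that cuts at abasic sites, was the brightest repair gene. It had 968, 708 and 955 on the tretinoin arrays, against 1237, 1181 and 1387 on the DMSO arrays, and its adjusted p of 0.044 passed while its fold of 1.46 missed the minimum. The glycosylase genes TDG, OGG1 and MUTYH had log2 fold changes of 0.05 ± 0.16, -0.19 ± 0.16 and -0.45 ± 0.18, and the scaffold gene XRCC1 one of -0.34 ± 0.36. None of these 4 passed the test, and their conditions overlapped. MUTYH was called lower without DMSO replicate 3 (log2 fold change -0.59, adjusted p = 0.0482).

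Nucleotide excision repair had 0 genes called by limma among 9, with 2 lower and 1 higher at an unadjusted p under 0.05, which held for 22.1% and 19.6% of all genes tested, and log2 fold changes between -0.84 and 0.46. DDB1 and DDB2 form the sensor of ultraviolet lesions. DDB1 had 249, 233 and 209 on the tretinoin arrays, against 259, 275 and 192 on the DMSO arrays, and its conditions overlapped widely (log2 fold change -0.06 ± 0.17, adjusted p = 0.837). DDB2 had 20, 32.7 and 20 on the tretinoin arrays, against 45.9, 61.3 and 26.6 on the DMSO arrays. Its fitted change was the most negative of the group but its DMSO arrays were scattered and overlapped with tretinoin (log2 fold change -0.84 ± 0.34, adjusted p = 0.108). It was called lower without DMSO replicate 3, its lowest DMSO array (log2 fold change -1.17, adjusted p = 0.0276). XPC, the general damage sensor, had 92.0, 95.1 and 44.3 on the tretinoin arrays, against 119.7, 107 and 97.6 on the DMSO arrays, with tretinoin replicate 3 far below the other two (log2 fold change -0.56 ± 0.30, adjusted p = 0.208). The damage verifier XPA and the helicases ERCC2 and ERCC3 of the TFIIH complex had log2 fold changes of 0.11 ± 0.20, -0.28 ± 0.30 and -0.06 ± 0.23.

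The endonucleases that cut out the lesion had fitted changes of both signs. ERCC1, the partner of ERCC4 in cutting on 1 side of the lesion, had 147, 175 and 138 on the tretinoin arrays, against 188, 204 and 217 on the DMSO arrays (log2 fold change -0.41 ± 0.14, adjusted p = 0.0673). ERCC4 had 40.4, 39.6 and 42.4 on the tretinoin arrays, against 36.7, 27.9 and 39.5 on the DMSO arrays (log2 fold change 0.25 ± 0.16, adjusted p = 0.3), and ERCC5, which cuts on the other side, had 41.2, 42.7 and 43.6 on the tretinoin arrays, against 25.4, 28.7 and 40.4 on the DMSO arrays (log2 fold change 0.46 ± 0.19, adjusted p = 0.11). The conditions did not overlap in any of the 3 genes, with tretinoin below DMSO for ERCC1 and above it for ERCC4 and ERCC5, but none passed the test. ERCC5 was called higher without DMSO replicate 3 (log2 fold change 0.65, adjusted p = 0.0209).

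End joining had 2 genes called lower. PRKDC, the catalytic subunit of the DNA-dependent protein kinase, had 101, 117 and 85.6 on the tretinoin arrays, against 243.5, 217 and 234 on the DMSO arrays (2.30-fold lower, log2 fold change -1.20 ± 0.15, adjusted p = 0.0012). XRCC6 and XRCC5 encode the Ku70 and Ku80 subunits that ring a broken end and recruit that kinase. XRCC6, on chromosome 22 with the promoter shown above, had 566, 555 and 539.9 on the tretinoin arrays, against 962, 942 and 927 on the DMSO arrays (log2 fold change -0.77 ± 0.11, adjusted p = 0.00225). Its arrays were tight within each condition and clear of each other. XRCC6 is the one repair gene whose probe set is among the transcripts that the study selected on these same arrays for their differential expression, so its fall is not independent evidence of direction. XRCC5 had 327, 346 and 334 on the tretinoin arrays, against 437, 416 and 389 on the DMSO arrays. The conditions did not overlap here either, but the change was smaller and missed the threshold (log2 fold change -0.30 ± 0.12, adjusted p = 0.0988). The other XRCC5 probe set, 208643_s_at, had 264, 286 and 266 on the tretinoin arrays, against 387, 350 and 378 on the DMSO arrays. Its adjusted p of 0.0268 passed while its fold of 1.36 missed the minimum (log2 fold change -0.45 ± 0.12). The ligase LIG4 and its partner XRCC4 had low signals, with log2 fold changes of 0.04 ± 0.17 and 0.45 ± 0.16. XRCC4 was called higher without DMSO replicate 2 (log2 fold change 0.59, adjusted p = 0.0301).

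Of the checkpoint group only CHEK1 was called. CHEK1 is the kinase that answers stalled replication forks (chr11:125625136-125681124, probe set 205394_at). It had 20, 25.5 and 20 on the tretinoin arrays, against 77.6, 65.4 and 59.6 on the DMSO arrays (at least 3.09-fold lower, log2 fold change -1.63 ± 0.17, adjusted p = 0.000445). All tretinoin signals were at or near the floor and no DMSO signal was below 59.6. CHEK2, the kinase that answers double-strand breaks, had 41.0, 37.1 and 54.1 on the tretinoin arrays, against 55.4, 54.3 and 55.5 on the DMSO arrays. Its conditions did not overlap, but the change missed the threshold (log2 fold change -0.34 ± 0.17, adjusted p = 0.17). The apical kinases ATM and ATR, which switch on CHEK2 and CHEK1, had log2 fold changes of 0.07 ± 0.17 and -0.29 ± 0.17, and their conditions overlapped. MDC1, a scaffold that binds marked chromatin at breaks, had 46.1, 48.0 and 44.4 on the tretinoin arrays, against 72.9, 71.6 and 58.7 on the DMSO arrays. Its adjusted p of 0.021 passed while its fold of 1.46 missed the minimum, and it was called lower without DMSO replicate 3 (log2 fold change -0.65, adjusted p = 0.0187). TP53BP1, which shields broken ends, had a log2 fold change of -0.53 ± 0.28 (adjusted p = 0.204).

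More than 1 probe set was tested for 14 of the repair genes, and these gave a second reading of the same RNA. For BRCA1, MSH6, PRKDC and RAD51C, both probe sets tested were called lower. For 7 genes no probe set was called, among them all 4 of NBN (log2 fold changes from 0.20 to 0.55). The probe sets of 3 genes disagreed in call. LIG3, the ligase that seals the final nick of base excision repair, was represented by 207348_s_at, with 38.5, 54.3 and 38.1 on the tretinoin arrays, against 49.1, 35.5 and 35.4 on the DMSO arrays (log2 fold change 0.12 ± 0.21, adjusted p = 0.709). Its other probe set, 204123_at, had 35.7, 23.9 and 26.3 on the tretinoin arrays, against 57.5, 59.3 and 47.2 on the DMSO arrays (log2 fold change -0.95 ± 0.19, adjusted p = 0.00841). The choice between them was a near tie, since the mean signals over all arrays were 41.8 and 41.6, and by the dimmer probe set LIG3 would have been lower. The second probe set of CHEK1, 205393_s_at, was at the floor on all tretinoin arrays, against 36.9, 33.7 and 22.3 on the DMSO arrays (at least 1.51-fold lower, not called). It passed the filter only through its DMSO arrays and so had to differ, and no standard error or p-value is given for it. The second probe set of XRCC6, 215308_at, had 20, 28.4 and 20 on the tretinoin arrays, against 26.4, 22.8 and 31.1 on the DMSO arrays (log2 fold change -0.24 ± 0.20, adjusted p = 0.411). Both were dim next to the probe set that represents the gene.

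**Figure D4:**
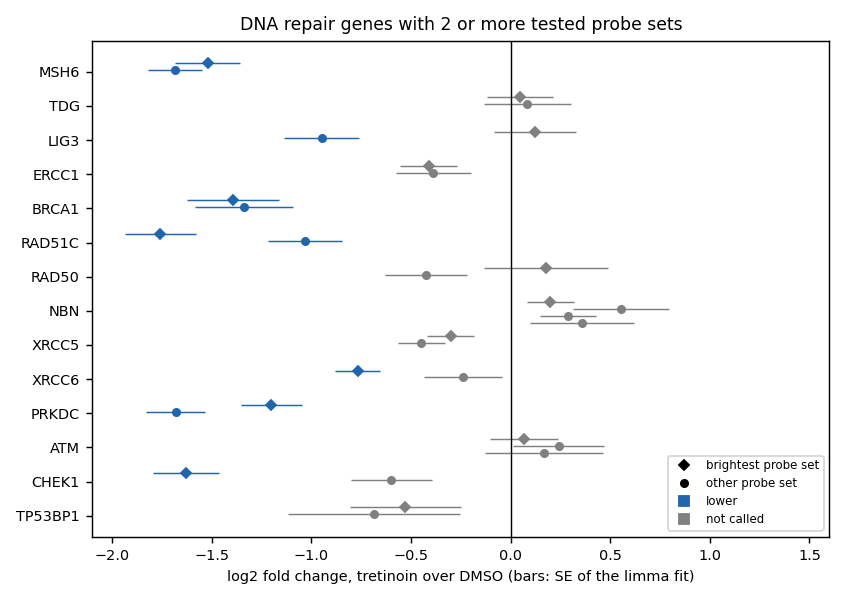
Log2 fold change (tretinoin over DMSO, with the standard error) of every tested probe set of the 14 repair genes that had more than 1, with the brightest of each gene marked. The probe sets of LIG3 fall on either side of the call, while those of MSH6, BRCA1, RAD51C and PRKDC all lie below -1.

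Proteins that work as partners were compared through the difference of their log2 signals within each array, for 12 pairs picked after the values were seen. In 7 of these pairs at least 1 array was at the floor for one of the partners, which sets the difference, and no value is given for them. In a design of 3 arrays against 3 the exact two-sided permutation test cannot go below 0.1, which is 0.2 after adjustment over the 12 pairs, so no pair can pass. The difference changed by -0.47 for XRCC6 minus XRCC5 and by -0.90 for PRKDC minus XRCC5 (log2, tretinoin minus DMSO), with no overlap between the conditions (exact permutation p = 0.1 each). For ERCC1 minus ERCC4 it was -0.66, also without overlap (exact permutation p = 0.1). The conditions overlapped for ATR minus ATM (-0.35) and for NBN minus RAD50 (0.02). A difference of this kind shows unequal change on the array, not that one partner stayed constant. The differences used the brightest probe set of each gene. Other probe sets gave other changes (log2 fold change -0.45 for XRCC5, -0.24 for XRCC6 and -1.68 for PRKDC), and no difference was taken with them.

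Dim signals set how closely a fall could be measured. By mean signal, 25 of the 48 tested genes (52.1%) lay between 20 and 60 and 23 above 60, against 48.4% of all tested genes in the dimmer band. Lower calls were made for 12 of the dimmer and 7 of the brighter genes, against 8.41% and 19.9% of all tested genes in the same bands. The mean was taken over both conditions after the floor, so a fall to the floor itself moved a gene toward the dimmer band. The 12 include NTHL1, RAD54L, MRE11 and FANCG, which passed the filter only through their DMSO arrays. The band was therefore not independent of the call, and no conclusion is drawn from these shares. Of the 19 lower genes, 11 had at least 1 tretinoin array at the floor and 4 had all 3 there (NTHL1, RAD54L, MRE11 and FANCG). The 8 genes above the floor on all 6 arrays, whose falls were therefore measured on both sides, were MSH6, PMS1, PARP1, RAD51C, BLM, WRN, XRCC6 and PRKDC. Their log2 fold changes ran from -1.76 for RAD51C to -0.77 for XRCC6. The tretinoin arrays of WRN were only just above the floor (21.3, 21.7 and 27.3). With a floor of 40 its call was lost (log2 fold change -0.50, adjusted p = 0.245). Leaving out each array in turn, 14 of the 19 lower calls held every time.

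**Figure D5:**
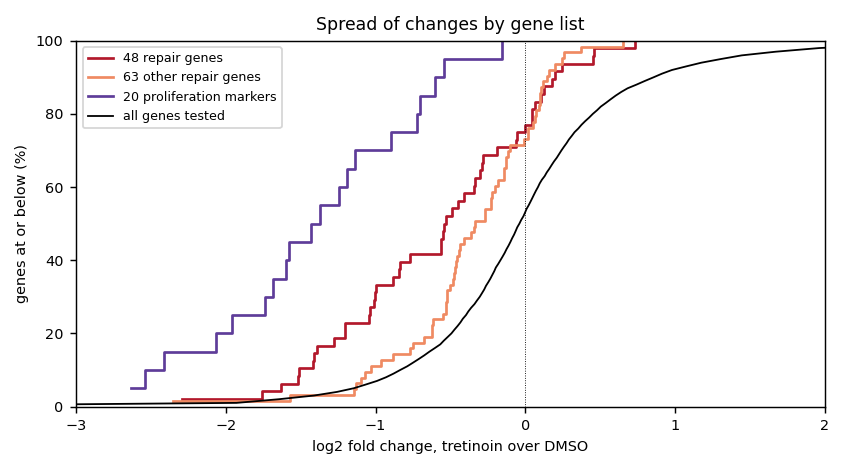
Cumulative share of genes (percent, vertical axis) at or below each log2 fold change (tretinoin over DMSO, horizontal axis), for the 48 repair genes tested, 63 other repair genes, 20 proliferation genes and all 8161 genes tested. The curve of the repair genes lies between those of the proliferation genes and of all genes over most of its range. The repair genes have a median of -0.54, against -0.04 for all genes, and only 1 of them is called higher.

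A further 100 repair genes outside the 52 were counted in the same way. They were listed by the same pathways and by 1 more, direct reversal and translesion synthesis. Of these, 73 were on the array with a probe set of their own and 63 were tested, with 13 called lower (20.6%), 0 called higher by limma (2 at an unadjusted p under 0.05) and a median log2 fold change of -0.34. Of all genes tested, 14.3% were lower and 13.5% higher, and 22.1% and 19.6% at an unadjusted p under 0.05. TIPIN, XRCC3 and RAD54B were at the floor on all 3 tretinoin arrays, passed the filter only through their DMSO arrays and had to differ. Of these, TIPIN is among the 13 called lower, and XRCC3 and RAD54B were not called. The larger falls were those of WEE1, the kinase that holds back mitosis (39.8, 23.5 and 32.8 on the tretinoin arrays, against 149, 173 and 159 on the DMSO arrays, 5.11-fold lower), and NEIL3, a glycosylase (37.6, 29.6 and 37.8 on the tretinoin arrays, against 94.1, 96.9 and 122 on the DMSO arrays, 2.98-fold lower). TOPBP1, which activates ATR, fell 2.14-fold, and USP1, the protease that resets the Fanconi pathway, fell 2.20-fold. By route, the lower calls were 5 of 11 checkpoint genes, 3 of 9 in base excision repair, 2 of 14 in nucleotide excision repair, 2 of 4 in the Fanconi pathway and 1 of 7 in direct reversal and translesion synthesis. By limma 0 lower calls were made among 13 further genes of homologous recombination, 3 of end joining and 2 of mismatch repair. At an unadjusted p under 0.05, 6, 1 and 1 of these were lower, against 22.1% of all genes tested.

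The labels of the cells were checked against marker genes. All 6 promyelocyte genes on the array, such as MPO, were called lower (summed signal 311 to 369 on the tretinoin arrays, against 4156 to 4698 on the DMSO arrays), and all 7 genes of granulocyte differentiation, such as ITGAM, were called higher (3362 to 3884, against 629 to 672). The 4 monocyte genes tested were higher too (890 to 911 over the 7 listed, against 213 to 239). Among these markers, ELANE was at the floor on all 3 tretinoin arrays and CSF1R on all 3 DMSO arrays. Each passed the filter only through the other condition and had to differ. Lists for T, B and NK cells and for erythroid, platelet, epithelial and fibroblast cells had summed signals of at most 224 on any array, and of these 7 lists the genes called were CD8A (lower) and NKG7 (higher). The mean signal ran from 91.3 to 132.7 on the tretinoin arrays and from 121 to 151.8 on the DMSO arrays before scaling, and arrays of a condition correlated more closely (r from 0.968 to 0.981) than arrays of different conditions (0.899 to 0.905). The ratio of 3' to 5' signal of ACTB, which rises where RNA is degraded or labeling stops short, was 1.14 to 1.17 on the tretinoin arrays, against 1.38 to 1.42 on the DMSO arrays. The same ratio of GAPDH was 1.15 to 1.19 on the tretinoin arrays, against 1.06 to 1.17 on the DMSO arrays. The part of either in the results was not tested. Only 3 arrays per condition limit the precision of every value given here.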

How the data were processed

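HL60 RNA was measured on 6 Affymetrix GeneChip human arrays, 3 per condition, grouped by their titles. The deposited values are linear probe set intensities that the submitters made with MAS5 (version not given in the sources used here). The authors' methods scale arrays to equal overall intensity and set values below 20 to 20, and this was applied to the deposited intensities by scaling to the mean of DMSO replicate 1 and then taking log2. Of 22283 probe sets, 19071 had 1 gene symbol, 1043 several and 2169 none, and only the first kind was named. The log2 values were fitted with limma 3.58.1 in R 4.3.3 for the 13374 probe sets that exceeded 20 on 3 or more arrays. A gene was shown by its brightest single-gene probe set. All 52 genes were named, with every array value for called genes and for those whose probe sets disagreed. The genes and lists were chosen with earlier results of these data known. Arrays carry no read depth, and their number limits the precision. In all, 20 alternative settings were tried.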

Additional observations from a re-analysis of the deposited data

How the results depend on the processing

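No call changed direction under any of the 20 alternative settings. With no scaling, 23 repair genes were lower and 0 higher, the median was -0.74, and 2 genes each of nucleotide excision repair and the checkpoint group were lower; that setting moved the median over all probe sets to -0.21, against -0.03, and the genes called to 17.9% lower and 8.59% higher. With a floor of 40, 11 genes were lower (median -0.33), against 10.9% of all genes, with 4 in homologous recombination and 0 in the Fanconi anemia group. Requiring signals above 20 on all 6 arrays left 31 genes tested and 8 lower, against 16.5% of all genes, with 1 in base excision repair, 3 in homologous recombination and 0 in both the Fanconi anemia and checkpoint groups, since fewer genes were tested. With no filter 18 repair genes were lower and 0 higher, against 7.4% and 7.34% of all genes. A 2-fold minimum left 15 lower and 0 higher, against 6.81% and 7.56% of all genes, with 1 lower in each of mismatch repair and end joining. No fold minimum gave 21 lower, against 16.9% of all genes, with 2 in the checkpoint group. The median over probe sets gave 17 lower, against 14% of all genes, with 1 in end joining. Leaving out each array in turn, the lower count ranged from 14 to 20, against 12.6% to 16.4% of all genes. It was 5 to 8 in homologous recombination, 0 to 1 in nucleotide excision repair and 1 to 2 in the checkpoint group. Arrays with the same replicate number shared only a number, their deviations correlating at -0.03, -0.01 and 0.07; with the replicate block 1 gene of nucleotide excision repair, DDB2, was lower, and 1119 genes in all were lower, against 1170. The lower calls of MSH6, PARP1, RAD51C, BLM and PRKDC held in every setting. Dim signals limited 11 of the 19 falls to lower bounds.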
